A study of Mus musculus with 7 samples.

Results

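The 10 genes described here encode 6 chemokines (Ccl2, Ccl7, Ccl11, Cxcl1, Cxcl12 and Cx3cl1), 2 cytokines (Il6 and Il33) and 2 receptor proteins of innate immunity (Tlr4 and Cd14). They were chosen by name, with earlier results of these data known. All 10 were found by gene identifier among the 55487 genes in the files. Their mRNA was measured by RNA sequencing in aortas from 3 heterozygous Col3a1+/G182R mice and 4 wild-type Col3a1+/+ mice of the same age, with 1 library per mouse. The Col3a1+/G182R mice carry in the germline 1 knock-in allele with a glycine replaced by arginine in the triple helix of type III collagen, a model of vascular Ehlers-Danlos syndrome, and the other allele is wild type. The selection cassette used to make the allele had been removed. All mice were C57BL/6 by the labels (C57BL/6J by the study's text), 7 weeks old and, by that text, male, and the vessel was the thoracic aorta. The question for each gene was whether its level in the aorta wall differed with the genotype.

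Chemokines are small secreted proteins that draw leukocytes along a gradient through receptors on those cells, and they are grouped by the spacing of the first cysteines of the mature protein. In an artery they are made by endothelial cells, smooth muscle cells, adventitial fibroblasts and resident macrophages. Toll-like receptor 4, the product of Tlr4, binds bacterial lipopolysaccharide and some molecules released by damaged tissue. It does so together with Cd14, which hands over the ligand, and with Ly96 (MD-2), the subunit that holds it. Signaling from the receptor reaches NF-kB and AP-1, transcription factors for which Ccl2, Cxcl1 and Il6 are textbook targets. Il33 is a cytokine of the IL-1 family stored in the nucleus of stromal cells and released when they are damaged.

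The family of each chemokine was taken as known. Shown are 48 bases around the first pair of cysteine codons with the spacing of that family, so that the 3 arrangements can be compared. Any cysteine codon before that pair was passed over. They were read from the GENCODE M21 transcripts on GRCm38, 5′ to 3′, with the cysteine codons in capitals and codons counted from the start codon. In Ccl2, Ccl7 and Ccl11, the CC chemokines, the codons are adjacent. In Cxcl1 and Cxcl12, the CXC chemokines, 1 codon lies between them, and in Cx3cl1, the CX3C chemokine, there are 3.
Ccl2 (codons 34 and 35): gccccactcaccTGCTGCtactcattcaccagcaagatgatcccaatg
Ccl7 (codons 33 and 34): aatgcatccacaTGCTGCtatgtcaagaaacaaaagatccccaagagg
Ccl11 (codons 32 and 33): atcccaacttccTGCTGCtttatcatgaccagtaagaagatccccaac
Cxcl1 (codons 33 and 35): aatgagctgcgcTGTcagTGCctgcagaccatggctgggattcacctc
Cxcl12 (codons 30 and 32): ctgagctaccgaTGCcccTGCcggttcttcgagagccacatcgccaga
Cx3cl1 (codons 32 and 36): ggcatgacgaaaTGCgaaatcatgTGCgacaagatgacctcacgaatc

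The 3 CC chemokine genes are neighbours on the plus strand of chromosome 11 of GRCm38, with Ccl2 from 82035571 to 82037453, Ccl7 from 82045712 to 82047525 and Ccl11 from 82057823 to 82062955. The other ligand genes also lie on plus strands, Cxcl1 on chromosome 5 from 90891241 to 90893115, Cxcl12 on chromosome 6 from 117168535 to 117181367 and Cx3cl1 on chromosome 8 from 94772009 to 94782427. Il6 lies on chromosome 5 from 30013114 to 30019981, Il33 on chromosome 19 from 29925114 to 29960718 and Tlr4 on chromosome 4 from 66827584 to 66930284, all on plus strands. Cd14 lies on the minus strand of chromosome 18 from 36725067 to 36726798. Ccl2 overlaps Gm17268 on the opposite strand, and whether the counting used strand is not given in the sources used here. The other 9 genes overlap no annotated gene.

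Libraries held 18820015 to 23953746 counts in Col3a1+/G182R and 13693861 to 21634680 in Col3a1+/+. Counts are estimates of reads per gene. CPM is the count scaled to a fixed library total, after each total was adjusted by the TMM normalization factor of its library. TPM is the abundance of transcripts scaled to a fixed total without that factor. It corrects for gene length and is used wherever genes are compared with each other. All 70 counts of the 10 genes (10 genes in 7 libraries) were whole numbers. A gene was tested when enough libraries held about 10 counts, which left 15688 genes, 9 of the 10 among them. Smooth muscle markers, which define the bulk of the vessel wall, summed to 23869 to 25632 TPM in Col3a1+/G182R and to 17539 to 28595 TPM in Col3a1+/+ libraries. In whole tissue, a difference in the number of cells of a type and a difference in RNA per cell cannot be told apart.

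Of the 9 tested genes, 0 passed an adjusted p of 0.05 in edgeR's quasi-likelihood test, against 0.0382% of all genes tested (0.0191% higher). At an unadjusted p under 0.05 there were 2 of 9, Tlr4 and Il33, both higher in Col3a1+/G182R, where 20.4% of all genes tested lay under that p and 9.57% were higher. DESeq2, run beside edgeR, called 1 of 9, Tlr4, against 4.61% of all genes tested. The measured log2 fold change was above 0 for 8 of the 9 genes, against 50.7% of all genes. Its median over the 9 genes was 0.61, against 0.01 over all genes tested, and it was 0.18 without Col3a1+/G182R replicate 2. The genes were chosen with earlier results of these data known, so these values cannot show that such genes differ as a set. The shares over all genes given here also stand beside the counts of every gene list below.

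**Figure D1:**
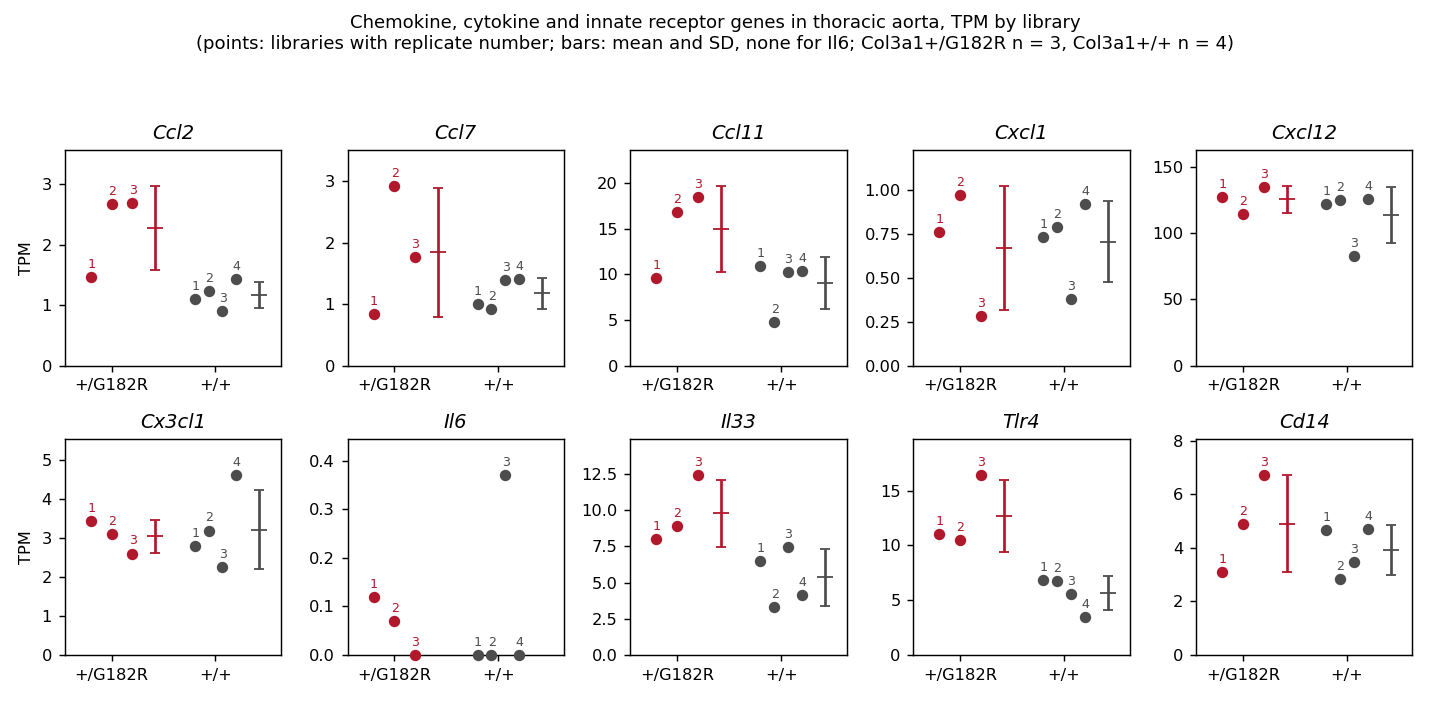
TPM of the 10 genes in each library (points, with replicate numbers), Col3a1+/G182R in red (n = 3) and Col3a1+/+ in grey (n = 4), each panel with its own axis from 0, and the mean with its SD as a bar except for Il6. Tlr4 is higher in all 3 Col3a1+/G182R libraries than in any Col3a1+/+ library, and Cxcl12 lies between 82.5 and 134.5 TPM in every library.

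The levels of the 10 genes ranged from barely detected to abundant. Cxcl12 had by far the highest level, with a mean of 118.6 TPM over the 7 libraries, at percentile 93.2 of all genes tested, and it was above each of the other genes in all 7. Ccl11 (11.6 TPM), Tlr4 (8.67 TPM) and Il33 (7.25 TPM) followed. Each exceeded the next in 5, 5 and 6 of the 7 libraries, so neighbours in this order were not separated beyond the spread between libraries. Cd14 averaged 4.34 TPM and Cx3cl1 3.14 TPM, and Cd14 was above Cx3cl1 in 5 of the 7 libraries. Cx3cl1 was above Ccl2 (1.65 TPM) in 6. Ccl2 was above Ccl7 (1.46 TPM) in 5 of 7, Ccl7 was above Cxcl1 (0.69 TPM) in 7 of 7, and Cxcl1 was above Il6 (0.08 TPM) in 7 of 7.

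Ccl2 attracts monocytes through the receptor Ccr2. Its counts were 16, 35 and 25 in Col3a1+/G182R, against 16, 11, 9 and 11 in Col3a1+/+ libraries. These correspond to 1.47, 2.67 and 2.69 TPM in Col3a1+/G182R, against 1.11, 1.24, 0.91 and 1.43 TPM in Col3a1+/+. Replicates 2 and 3 of Col3a1+/G182R were high and replicate 1 lay close to the highest Col3a1+/+ library, so the genotypes did not overlap in TPM but did in CPM, where replicate 1 (0.718) lay below the highest Col3a1+/+ library (0.744). In TPM, 9.54% of all genes tested were higher in Col3a1+/G182R without overlap. The log2 fold change of Ccl2 was 0.80 ± 0.373 (standard error, edgeR adjusted p = 0.257).

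Ccl7 is another ligand of Ccr2. Its counts were 9, 34 and 15 in Col3a1+/G182R, against 10, 8, 12 and 10 in Col3a1+/+ libraries, or 0.84, 2.92 and 1.76 TPM against 1.00, 0.92, 1.39 and 1.40 TPM. Replicate 1 of Col3a1+/G182R was the lowest of the 7 libraries and replicate 2 the highest, so the genotypes overlapped. Its log2 fold change was 0.61 ± 0.479 (edgeR adjusted p = 0.479), and without Col3a1+/G182R replicate 2 it was 0.03.

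Ccl11, or eotaxin, attracts eosinophils through Ccr3 and was the most abundant of the CC chemokines here. It had 9.59, 16.80 and 18.53 TPM in Col3a1+/G182R, against 10.88, 4.81, 10.26 and 10.43 TPM in Col3a1+/+ libraries. Its counts were 146, 277 and 223 in Col3a1+/G182R, against 154, 59, 125 and 105 in Col3a1+/+. Replicate 1 of Col3a1+/G182R lay within the Col3a1+/+ range, and replicates 2 and 3 lay above it. Replicate 2 of Col3a1+/+ stood below the other 3 Col3a1+/+ libraries. For Ccl11 the log2 fold change was 0.67 ± 0.304 (edgeR adjusted p = 0.252, DESeq2 adjusted p = 0.198).

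For each of the 3 CC chemokines, replicate 1 was thus the lowest of the Col3a1+/G182R libraries. The summed level of the 3 was 11.9, 22.4 and 23.0 TPM in Col3a1+/G182R, against 13.0, 6.97, 12.6 and 13.3 TPM in Col3a1+/+ libraries. Most of this sum was Ccl11 (9.59, 16.80 and 18.53 TPM in Col3a1+/G182R). In the sum, replicate 1 of Col3a1+/G182R lay among the Col3a1+/+ libraries, while replicates 2 and 3 lay above all 4 of them. The 12 macrophage markers showed a similar order in Col3a1+/G182R, summing to 235, 310 and 616 TPM there against 283, 182.3, 214 and 240 TPM in Col3a1+/+, with none of the 12 at 0 in all libraries. The 7 adipocyte markers also did, at 2210, 4260 and 4714 TPM in Col3a1+/G182R against 2251, 2112, 2546 and 4228 TPM in Col3a1+/+. The part of either in the level of the chemokines was not tested.

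**Figure D2:**
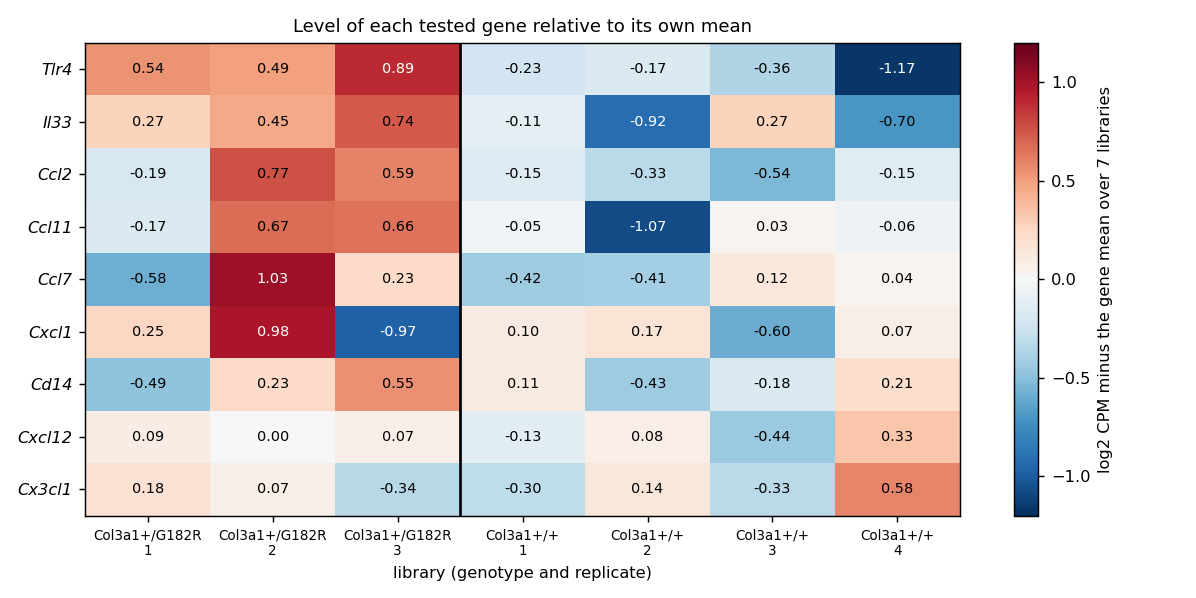
Log2 CPM of the 9 tested genes in each library (columns, Col3a1+/G182R left of the black line and Col3a1+/+ right of it) minus the mean of the gene over the 7 libraries, red above it and blue below. Tlr4 is above its mean in all 3 Col3a1+/G182R libraries and below it in all 4 Col3a1+/+ libraries, and Ccl2, Ccl7 and Ccl11 are above theirs only in replicates 2 and 3 of Col3a1+/G182R and, at 0.12 or less, in Col3a1+/+ replicates 3 and 4.

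Cxcl1, which attracts neutrophils through Cxcr2, was close to the limit of counting, with counts of 14, 26 and 4 in Col3a1+/G182R, against 12, 10, 5 and 8 in Col3a1+/+ libraries. It averaged 0.67 ± 0.35 TPM in Col3a1+/G182R (SD, n = 3) and 0.70 ± 0.23 TPM in Col3a1+/+ (SD, n = 4). The highest and the lowest of the 7 libraries were replicates 2 and 3 of Col3a1+/G182R. Its log2 fold change was 0.40 ± 0.540 (edgeR adjusted p = 0.686), so the fit and the mean TPM differed in direction. The fold change was -0.0104 with effective gene lengths in the fit and -0.22 without Col3a1+/G182R replicate 2.

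Cxcl12, the stromal ligand of Cxcr4 and of the scavenger receptor Ackr3, had 127.2, 114.3 and 134.5 TPM in Col3a1+/G182R, against 121.5, 125.0, 82.5 and 125.4 TPM in Col3a1+/+ libraries. Apart from the low replicate 3 of Col3a1+/+, all libraries lay within a narrow band and the genotypes overlapped. Its log2 fold change was 0.07 ± 0.173 (edgeR adjusted p = 0.847), the smallest of the 9 in size. Counts of Cxcl12 ran from 3749 to 4453 in Col3a1+/G182R and from 2284 to 3699 in Col3a1+/+, so counting error was small.

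Cx3cl1, or fractalkine, is made as a membrane protein of endothelium and binds Cx3cr1. It had 3.44, 3.09 and 2.60 TPM in Col3a1+/G182R, against 2.80, 3.19, 2.25 and 4.61 TPM in Col3a1+/+ libraries. The highest and the lowest library were both Col3a1+/+, so the Col3a1+/G182R values lay inside the wild-type range. Its log2 fold change was -0.08 ± 0.264 (edgeR adjusted p = 0.878), the only one of the 9 below 0.

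Il6, the cytokine that acts through Il6ra and Il6st, was close to absent from these libraries. It had counts of 1, 1 and 0 in Col3a1+/G182R, against 0, 0, 4 and 0 in Col3a1+/+, 6 in all, and it was not tested. A count of 0 in the 4 libraries without a read allows up to 3 counts, or 0.139 to 0.203 CPM, and such limits cover counting error only. No difference in Il6 between genotypes was therefore detectable at this depth.

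Il33 had 8.0, 8.91 and 12.4 TPM in Col3a1+/G182R, against 6.49, 3.34, 7.49 and 4.11 TPM in Col3a1+/+ libraries. Its counts were 308, 370 and 366 in Col3a1+/G182R, against 230, 103, 229 and 104 in Col3a1+/+. All 3 Col3a1+/G182R libraries lay above the 4 Col3a1+/+ libraries in TPM, as in 9.54% of all genes tested, while in CPM the lowest Col3a1+/G182R library (13.8) and the highest Col3a1+/+ library (13.8) were level. Within Col3a1+/+, replicates 2 and 4 held less than replicates 1 and 3. The log2 fold change of Il33 was 0.79 ± 0.274 (edgeR adjusted p = 0.179, DESeq2 adjusted p = 0.0859).

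Among the 9 tested genes Tlr4 had the largest log2 fold change. Its levels were 11.1, 10.5 and 16.4 TPM in Col3a1+/G182R, against 6.85, 6.78, 5.56 and 3.47 TPM in Col3a1+/+ libraries. Its counts were 700, 713 and 764 in Col3a1+/G182R, against 397, 326, 278 and 141 in Col3a1+/+. Every Col3a1+/G182R library lay above every Col3a1+/+ library in TPM and in CPM, and in CPM that held for 10.1% of all genes tested (20.9% in either direction). Replicate 3 was the highest in Col3a1+/G182R and replicate 4 the lowest in Col3a1+/+.

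The mean level of Tlr4 was 12.7 ± 3.27 TPM in Col3a1+/G182R (SD, n = 3) and 5.66 ± 1.58 TPM in Col3a1+/+ (SD, n = 4). The log2 fold change was 1.09 ± 0.223 (standard error), with an edgeR adjusted p of 0.127 and a DESeq2 adjusted p of 0.00183. Tlr4 held rank 88 of the 15688 genes by edgeR's p. Leaving out Col3a1+/+ replicate 4, the lowest library, the log2 fold change was 0.90 and the edgeR adjusted p was 0.0455. Leaving out Col3a1+/G182R replicate 3, the highest, they were 0.94 and 0.411, and the DESeq2 adjusted p was 0.0875. It lay between 0.90 and 1.18 in the 22 alternative fits in which Tlr4 was tested.

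Cd14, the co-receptor that passes lipopolysaccharide to Tlr4, had 3.10, 4.89 and 6.72 TPM in Col3a1+/G182R, against 4.67, 2.84, 3.48 and 4.71 TPM in Col3a1+/+ libraries. Replicate 1 of Col3a1+/G182R lay within the Col3a1+/+ range and replicate 3 was the highest of the 7, so the genotypes overlapped, and the log2 fold change was 0.21 ± 0.288 (edgeR adjusted p = 0.686, DESeq2 adjusted p = 0.717). The ratio of Tlr4 to Cd14 in TPM was 3.58, 2.15 and 2.44 in Col3a1+/G182R, against 1.47, 2.39, 1.598 and 0.737 in Col3a1+/+, with 1 Col3a1+/+ library inside the Col3a1+/G182R range. Ly96, the remaining subunit of the receptor complex, had 12.1, 11.6 and 13.2 TPM in Col3a1+/G182R, against 10.01, 7.65, 9.04 and 9.88 TPM in Col3a1+/+ libraries. Its genotypes did not overlap, as with Col3a1+/G182R higher in 10.1% of all genes tested in CPM and 9.54% in TPM. The log2 fold change of Ly96 was 0.43 ± 0.208 (edgeR adjusted p = 0.271).

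Macrophages, endothelial cells and fibroblasts can all make Tlr4 mRNA, so the levels of their markers stand here beside it. Of the 12 macrophage markers, 11 were measured higher in Col3a1+/G182R and 8 lay under an unadjusted p of 0.05, with a median log2 fold change of 0.74, 0 called by edgeR and 2 by DESeq2 (Lyve1, and Lyz2, whose counts were not whole). Over all genes tested, 50.7% measured higher, 20.4% lay under that p (9.57% higher) and 4.61% were called by DESeq2. The sum of the macrophage markers was highest in Col3a1+/G182R replicate 3 (616 TPM), which was also highest for Tlr4. In Col3a1+/G182R replicate 1 (235 TPM) that sum lay inside the Col3a1+/+ range of 182.3 to 283 TPM, while Tlr4 lay above its own Col3a1+/+ range. The 7 fibroblast markers summed to 1267 to 1723 TPM in Col3a1+/G182R and 733 to 1724 TPM in Col3a1+/+, and 3 of them lay under an unadjusted p of 0.05, with 0 called by edgeR and 1 by DESeq2. That 1 was Lum, a proteoglycan of the matrix, with 70.1, 76.6 and 79.1 TPM in Col3a1+/G182R, against 63.2, 30.9, 20.8 and 14.01 TPM in Col3a1+/+. The genotypes did not overlap for Lum, as for Tlr4 and, with Col3a1+/G182R higher in CPM, for 10.1% of all genes tested. Lum had a log2 fold change of 1.197 ± 0.387 (edgeR adjusted p = 0.171, DESeq2 adjusted p = 0.0425). Dcn and Dpt, the others under an unadjusted p of 0.05, had log2 fold changes of 1.081 and 0.65. The 8 endothelial markers summed to 218 to 309 TPM in Col3a1+/G182R and 122 to 290 TPM in Col3a1+/+, with 2 under an unadjusted p of 0.05 and 0 called by edgeR or DESeq2. The median log2 fold change was 0.42 for the fibroblast and 0.25 for the endothelial markers, and no marker of either list was at 0 in all libraries.

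Of 15 immediate early genes, which respond within minutes to stimulation of cells, 15 were measured higher in Col3a1+/G182R, 6 of them at an unadjusted p under 0.05 and 0 called by edgeR. Over all genes tested, 50.7% measured higher and 9.57% were higher at an unadjusted p under 0.05. The sum of the 15 genes was 354 to 455 TPM in Col3a1+/G182R and 198 to 332 TPM in Col3a1+/+, so the genotypes did not overlap in the sum. Gene by gene, 4 of the 15 were higher in Col3a1+/G182R without overlap in CPM, against 10.1% of all genes tested. Fos had a log2 fold change of 2.11 ± 0.510 (edgeR adjusted p = 0.149, DESeq2 adjusted p = 0.0481) and Klf4 one of 0.61 ± 0.156 (edgeR adjusted p = 0.158, DESeq2 adjusted p = 0.0291). Markers of heart and skeletal muscle ran the other way, summing to 17.2 to 20.97 TPM in Col3a1+/G182R and 31.9 to 94.2 TPM in Col3a1+/+. Red blood cell markers summed to 697 to 1900 TPM in Col3a1+/G182R and 410 to 1058 TPM in Col3a1+/+. The part of any of these cell types, or of the early response, in the level of Tlr4 and Il33 was not tested.

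**Figure D3:**
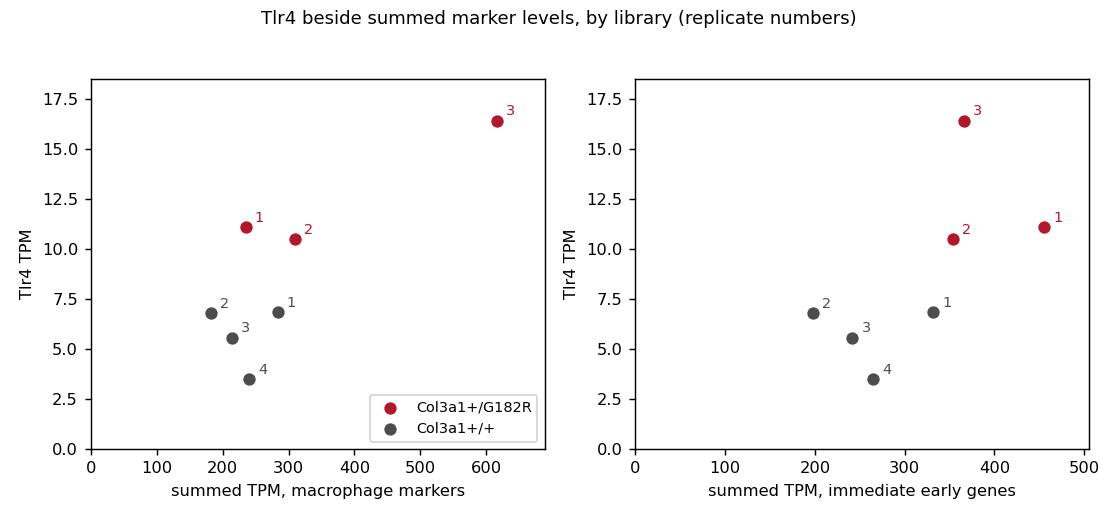
Tlr4 in TPM (vertical axis) against the summed TPM of 12 macrophage markers (left) and of 15 immediate early genes (right), 1 point per library with its replicate number, Col3a1+/G182R in red and Col3a1+/+ in grey. Col3a1+/G182R replicate 1 has a macrophage sum of 235 TPM, inside the Col3a1+/+ range, and a Tlr4 level of 11.1 TPM, above it.

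Of the leukocytes that these chemokines attract, some left few reads in either genotype. Of 7 neutrophil markers 2 were tested, with 0 called by edgeR or at an unadjusted p under 0.05 and 0 by DESeq2, and Ly6g, the defining surface marker of mouse neutrophils, was at 0 in every library. Of 10 markers of T, B and NK cells 0 had enough counts to be tested, and they summed to 1.33 to 2.48 TPM in Col3a1+/G182R and 0.610 to 7.23 TPM in Col3a1+/+ libraries. Median log2 fold changes of the other marker lists were -0.05 for smooth muscle (7 tested), -0.17 for mast cells (5), 1.15 for mesothelium (2), 0.36 for adipocytes (7), 0.34 for lymphatic endothelium (5), -1.06 for heart and skeletal muscle (5), 0.87 for red blood cells (5) and 0.22 for Schwann cells (5).

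The receptors for these ligands were read from a list of 13 genes. Of 11 tested, 10 were measured higher in Col3a1+/G182R, with a median log2 fold change of 0.47. In edgeR 0 were called and 1 lay under an unadjusted p of 0.05, against 20.4% of all genes tested. DESeq2 called 1, against 4.61% of all genes tested. That gene was Il1rap, the chain shared by the receptors for Il33 and interleukin 1, with 3.08, 2.68 and 3.61 TPM in Col3a1+/G182R, against 2.43, 1.51, 1.70 and 1.57 TPM in Col3a1+/+ libraries. Its genotypes did not overlap, as with Col3a1+/G182R higher in CPM in 10.1% of all genes tested. The log2 fold change of Il1rap was 0.84 ± 0.200 (edgeR adjusted p = 0.146, DESeq2 adjusted p = 0.00952). Il1rl1, or ST2, the specific chain for Il33, had a log2 fold change of 0.47.

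Ccr2, the receptor of Ccl2 and Ccl7, had 1.17, 1.06 and 2.93 TPM in Col3a1+/G182R, against 0.73, 0.97, 1.04 and 1.09 TPM in Col3a1+/+. Replicate 3 of Col3a1+/G182R stood above the others and the genotypes overlapped (log2 fold change 0.74 ± 0.365, edgeR adjusted p = 0.278). Cx3cr1, the receptor of Cx3cl1, was the only one measured lower, at 0.57, 0.78 and 0.81 TPM in Col3a1+/G182R, against 1.45, 0.78, 0.78 and 0.97 TPM in Col3a1+/+. The genotypes overlapped for Cx3cr1 in TPM but not in CPM, where the highest Col3a1+/G182R library had 2.09 and the lowest Col3a1+/+ library 2.11. In CPM, 10.8% of all genes tested were lower in Col3a1+/G182R without overlap. The log2 fold change of Cx3cr1 was -0.50 (edgeR adjusted p = 0.354). For Cxcl12, Cxcr4 had a log2 fold change of 0.56, and Ackr3 had one of 0.60 ± 0.311 (edgeR adjusted p = 0.296). For Il6, Il6ra had one of 0.14 and Il6st, the shared signaling chain, one of 0.17, at 77.6 TPM in Col3a1+/G182R and 64.9 TPM in Col3a1+/+. Ackr1, a scavenger of CC and CXC ligands, had a log2 fold change of 0.23. Ccr3 and Cxcr2, the receptors of Ccl11 and Cxcl1, had too few counts to be tested. Some counts of Il1rap, Ccr2 and Ackr1 were not whole, so reads of these genes may have been shared with others.

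Among 30 other chemokine ligands, 15 were tested and 10 of these measured higher in Col3a1+/G182R, with a median log2 fold change of 0.35, 0 called by edgeR, 3 at an unadjusted p under 0.05 and 2 called by DESeq2 in opposite directions. Over all genes tested, 50.7% measured higher, 20.4% lay under that p and 4.61% were called by DESeq2. Ccl6, a myeloid chemokine of rodents, had 19.3, 25.7 and 69.5 TPM in Col3a1+/G182R, against 15.2, 14.8, 13.5 and 20.4 TPM in Col3a1+/+. Its log2 fold change was 1.19 ± 0.345 (edgeR adjusted p = 0.164, DESeq2 adjusted p = 0.0291). Ccl27a had a log2 fold change of -0.74 ± 0.194 (edgeR adjusted p = 0.158, DESeq2 adjusted p = 0.0234), but it has near-identical copies and some of its counts were not whole, so that value is uncertain. Ccl9 had a log2 fold change of 0.85 and Pf4 one of 0.66. Of 15 other chemokine receptors 5 were tested, all 5 measured higher, with 2 at an unadjusted p under 0.05, 0 called by edgeR and 0 by DESeq2. The scavenger receptor Ackr4 had 8.11 ± 1.04 TPM in Col3a1+/G182R and 2.92 ± 2.28 TPM in Col3a1+/+ (SD, n = 3 and 4, edgeR adjusted p = 0.215), with some counts not whole. Ccrl2 had a log2 fold change of 0.49 and Ackr2 one of 0.35. Ccr1 had one of 1.38 (edgeR adjusted p = 0.246), and its genotypes overlapped. Its counts were low, at 14, 16 and 46 in Col3a1+/G182R, against 18, 4, 8 and 4 in Col3a1+/+ libraries.

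Other cytokines were measured in both directions. Of 31 listed, 12 were tested, 4 with a higher and 8 with a lower value in Col3a1+/G182R, with a median log2 fold change of -0.17, 0 called by edgeR and 1 at an unadjusted p under 0.05. Tnf and Il1b were among the 19 with too few counts. The 1 gene under that p, also called by DESeq2, was Clcf1, a ligand of the IL-6 family, with 6.24, 3.54 and 4.81 TPM in Col3a1+/G182R, against 6.93, 7.52, 8.75 and 11.3 TPM in Col3a1+/+ (log2 fold change -0.97 ± 0.223, edgeR adjusted p = 0.146, DESeq2 adjusted p = 0.00583). Csf1, the growth factor of macrophages, had a log2 fold change of 0.42, Mif one of -0.31 and Il18 one of 0.55. Receptor and signaling genes of the IL-6 and IL-1 families had a median of 0.09 over 12 tested of 15, with 0 called by edgeR or DESeq2 and 3 at an unadjusted p under 0.05. Among them Lifr had a log2 fold change of 0.41, Tyk2 one of -0.61, Il11ra1 one of -0.35 and Jak2 one of 0.26, and some counts of Il11ra1 and Mif were not whole.

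**Figure D4:**
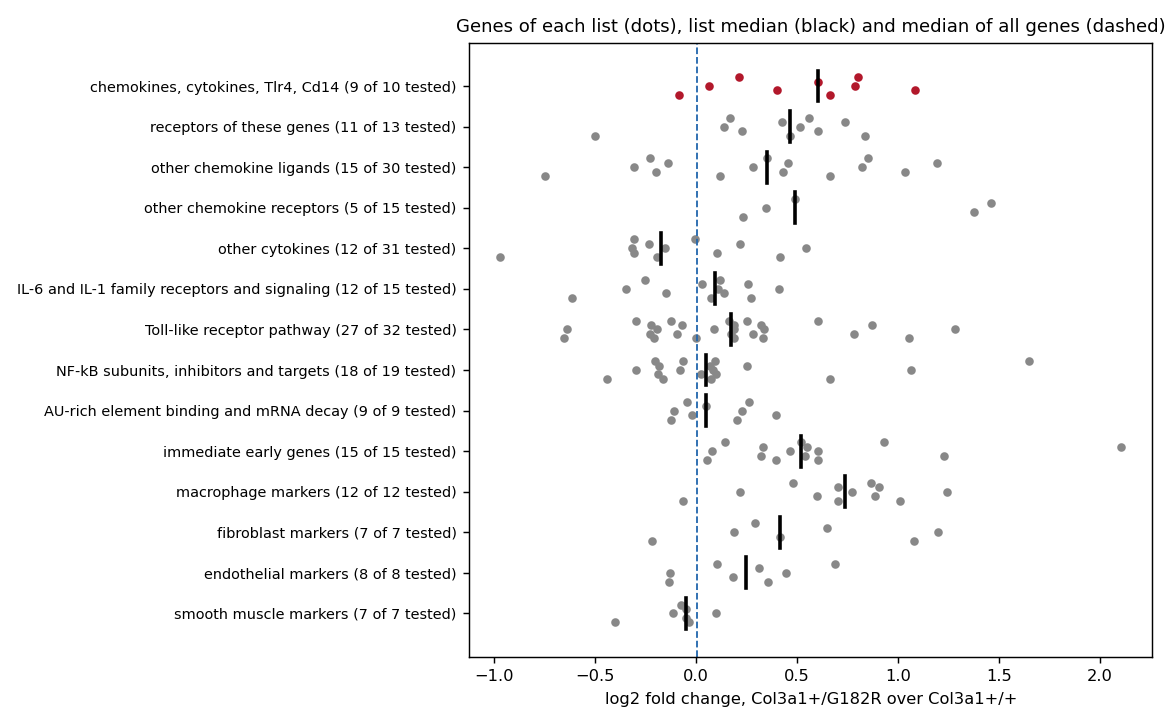
Log2 fold change (Col3a1+/G182R over Col3a1+/+, horizontal axis) of every tested gene of each list (dots, the 9 tested genes of this report in red), with the median of the list in black and the median of all genes tested, 0.01, as a dashed line. The median is 0.61 for the 9 genes, 0.47 for their receptors, 0.18 for the Toll-like receptor pathway and 0.05 for the NF-kB list. The genes and lists were chosen with earlier results of these data known.

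The Toll-like receptor pathway beside Tlr4 and Cd14 was described by 32 genes. In the 27 that were tested, 17 values were higher and 10 lower in Col3a1+/G182R, with a median log2 fold change of 0.18. In edgeR 0 were called and 4 lay under an unadjusted p of 0.05, in both directions, against 20.4% of all genes tested. DESeq2 called 1, against 4.61% of all genes tested. That gene was Irak2, a kinase of the receptor's signaling complex, at 81.5 ± 10.6 TPM in Col3a1+/G182R and 108 ± 17.1 TPM in Col3a1+/+ (log2 fold change -0.64 ± 0.185, edgeR adjusted p = 0.165, DESeq2 adjusted p = 0.0402). Tab1 had a log2 fold change of -0.65 and Tab2 one of 0.34, both adaptors of the kinase Map3k7. Ly86, the partner of the Tlr4-like protein Cd180, had 3.14, 3.57 and 9.30 TPM in Col3a1+/G182R, against 2.61, 1.89, 2.49 and 2.64 TPM in Col3a1+/+. Replicate 3 of Col3a1+/G182R stood far above the others, as it did for the macrophage markers. Some counts of Irak2 were not whole.

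Of 19 NF-kB subunits, inhibitors and targets, 18 were tested, 10 with a higher and 8 with a lower value in Col3a1+/G182R, with a median log2 fold change of 0.05. In edgeR 0 were called and 3 lay under an unadjusted p of 0.05, all of them target genes and all higher. Of all genes tested, 20.4% lay under that p, and 9.57% did so with a higher value. Ptgs2, the inducible cyclooxygenase, had 1.71, 1.71 and 2.65 TPM in Col3a1+/G182R, against 0.71, 0.43, 0.73 and 0.42 TPM in Col3a1+/+ libraries. Its genotypes did not overlap, as with Col3a1+/G182R higher in CPM in 10.1% of all genes tested. Ptgs2 had the lowest p of this list (log2 fold change 1.65 ± 0.320, edgeR adjusted p = 0.119, DESeq2 adjusted p = 6.74e-04). The adhesion molecules Vcam1 and Selp had log2 fold changes of 0.66 ± 0.215 and 1.06 ± 0.343 (edgeR adjusted p = 0.171 and 0.170), and some counts of Selp were not whole. Tnfaip3, which restrains NF-kB, had a log2 fold change of -0.44 (edgeR adjusted p = 0.254).

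Chemokine and cytokine mRNAs carry AU-rich elements and are short-lived, and proteins that bind such elements or remove these mRNAs formed a list of 9. All 9 were tested, with a median log2 fold change of 0.05, 0 called by edgeR, 1 at an unadjusted p under 0.05 and 0 called by DESeq2. That 1 was Rc3h1, or Roquin, with a log2 fold change of 0.40 ± 0.132 (edgeR adjusted p = 0.176). Rc3h2 had a log2 fold change of 0.23, Zfp36l1 one of 0.20 and Zfp36, or tristetraprolin, one of 0.26, and some counts of Zfp36 and Zfp36l1 were not whole.

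Promoters were available for 5 of the 10 genes, Cxcl1, Cxcl12, Cx3cl1, Il6 and Il33, in the RefSeq table for GRCm38.p6. The 250 bases before each start were searched on both strands for the NF-kB consensus (GGG, a purine, any pair of bases, a pair of pyrimidines, CC) and for the AP-1 letters TGANTCA, which 7.25% and 6.75% of 32851 promoters of the same length held. The NF-kB consensus occurred 2 times in Cxcl1, from 71 to 62 bases before the start on the plus strand and, overlapping it, from 70 to 61 on the minus strand, and 1 time in Il6, from 44 to 35 on the plus strand. The AP-1 letters occurred in Il6 alone, from 249 to 243 bases before the start. Cxcl12, Cx3cl1 (whose RefSeq start lies 171 bases after the GENCODE one) and Il33 held neither. The last 100 bases before the start are shown for the genes with a match and for Il33, which had the lowest p of the 4 tested genes among these 5, 5′ to 3′ on the plus strand with the NF-kB matches in capitals.
Cxcl1 (chr5:90891145-90891244): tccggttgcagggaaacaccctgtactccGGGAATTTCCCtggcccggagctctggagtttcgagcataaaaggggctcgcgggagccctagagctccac
Il6 (chr5:30013014-30013113): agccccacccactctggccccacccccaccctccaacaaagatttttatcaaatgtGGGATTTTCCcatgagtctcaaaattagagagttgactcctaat
Il33 (chr19:29925013-29925112): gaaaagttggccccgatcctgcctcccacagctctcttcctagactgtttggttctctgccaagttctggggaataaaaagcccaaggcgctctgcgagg
Of the 5 genes searched, those whose promoters held the NF-kB consensus, Cxcl1 and Il6, were the 2 with the lowest levels. The promoters of Ccl2, Ccl7, Ccl11, Tlr4 and Cd14 were not searched, so a link between the consensus and the level was not tested. A match of letters is a description and not a binding site.

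For the 4 tested genes with the lowest p, the protein-coding genes most like them over the 7 libraries were looked up by the root mean square difference of log2 CPM, each centred on its own mean, among 12753 or 12754 genes with a mean of at least 1 CPM. For Tlr4, which varied with an SD of 0.696 on the log2 scale, these were Cpeb4 (0.124), Togaram1 (0.143) and Abca6 (0.149). For Il33, with an SD of 0.610, they were Nfil3 (0.171), Nedd9 (0.185) and Homer2 (0.217). For Ccl11, with an SD of 0.587, they were H2-M9 (0.105), Samd12 (0.114) and Homer1 (0.144). For Ccl2, with an SD of 0.486, they were Mpc1 (0.159), Car13 (0.169) and Mme (0.183). None of these 12 genes was a chemokine or a cytokine. The share of such genes among the candidates was not counted, so this says nothing about the 4 genes. The 7 libraries share their genotype groups and depth, so a like pattern is a description of these libraries only.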

How the data were processed

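RNA of thoracic aortas was made into libraries with a stranded poly-A kit, 1 per mouse. Per the labels, the submitters' processing notes name STAR 2.7.6a, RSEM 1.3.1 and GRCm38, and the expected counts per gene were deposited by the authors with TPM and effective gene lengths. The paper's methods name other counting software. The annotation release and the use of strand in counting are not given in the sources used here. Symbols and places came from GENCODE M21 (55227 of 55487 identifiers found).

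Expected counts were rounded to whole numbers and filtered with filterByExpr (minimum count 10, edgeR 4.0.16, R 4.3.3), which left 15688 genes. They were normalized by TMM and tested two-sided with edgeR's quasi-likelihood test, genotype as the only term, with Benjamini-Hochberg adjustment over all genes and a threshold of 0.05. TPM as deposited gave the levels and entered no test. CPM was computed from the rounded counts over the total of the tested genes in each library, multiplied by its TMM factor (0.968 to 1.08). DESeq2 1.42.0 (which gave no adjusted p for Ccl2, Ccl7 and Cxcl1), limma 3.58.1 (voom, library quality weights), RLE factors, other filters, the effective length as an offset (a deposited value of unit other), a replicate block and each library left out were alternatives. The form of the NF-kB consensus was set after a narrower form had been searched. DESeq2 with a library left out and the list counts under the alternatives were added after seeing the data.

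The 10 genes and 22 further lists (271 genes) were chosen with earlier results of these data known. Named from each list were up to 4 genes with the lowest p and the receptors of the 10 genes. Of these receptors, 1 is not reported here. Nothing says more than that each library is 1 mouse. The p-values set the genotype difference against the spread between libraries, estimated with information shared over all genes. With 1 library per mouse, the spread between mice and that between library preparations cannot be told apart. The total counts per library, 13693861 to 23953746, set the counting error.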

Additional observations from a re-analysis of the deposited data

Results flagged for a closer look

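In the 4 Col3a1+/+ libraries, 3 of the 10 genes had a Dixon's ratio, the gap of 1 library to its nearest neighbour over the whole range, above its 95% critical value for 4 values. Ccl11 had a ratio of 0.890, with 3.46 CPM in replicate 2 and at least 7.10 CPM in the other 3. Cxcl1 had a ratio of 0.842, with 0.302 CPM in replicate 3 and at least 0.541 CPM in the others. Il6 had a ratio of 1, with 0.242 CPM in replicate 3 and 0 in the others, which are counts of 4 and 0. With the other libraries at 0, this ratio is 1 for any count above 0, so it says nothing about Il6. Chance puts about 1 in 20 groups past this value, and 10 groups were looked at. Groups of 3, as in Col3a1+/G182R, were not examined this way.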

How the results depend on the processing

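Of 195 alternative values of the 9 log2 fold changes, 161 kept the direction and side of the threshold, 10 of Ccl2, Ccl7 and Cxcl1 kept the direction but got no adjusted p from DESeq2, 11 passed it (10 of Tlr4, 1 of Il33 at 1.03 in DESeq2 without Col3a1+/+ replicate 3), and 13 changed sign, none of them past the threshold and 1 (Cxcl1 by DESeq2) without an adjusted p. These were Cxcl1 at -0.0104 with the effective length offset, -0.22 without Col3a1+/G182R replicate 2 and -0.23 there by DESeq2; Cxcl12 at -0.0608 by edgeR and -0.0568 by DESeq2 without Col3a1+/+ replicate 3; Cd14 at -0.0394 by edgeR and -0.0340 by DESeq2 without Col3a1+/G182R replicate 3; and Cx3cl1 at 0.13 with quality weights, 0.14 with the replicate block, 0.13 by edgeR and 0.14 by DESeq2 without Col3a1+/+ replicate 4, and 0.05 by edgeR and 0.0553 by DESeq2 without Col3a1+/G182R replicate 3. With a library left out, edgeR gave -0.22 to 0.79 for Cxcl1, -0.0608 to 0.19 for Cxcl12, -0.20 to 0.13 for Cx3cl1 and -0.0394 to 0.45 for Cd14. The cause was not tested.

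All genes called, 6 in edgeR, were 723 in DESeq2, 11 in limma-voom, 546 with quality weights, 353 without a filter, 0 with at least 10 counts in every library, 14 with the effective length offset, and 46 with the replicate block. Leaving out each library gave 0 to 183 in edgeR, and in DESeq2 498, 120 and 124 without Col3a1+/G182R replicates 1, 2 and 3 and 1860, 716, 168 and 690 without Col3a1+/+ replicates 1 to 4. Of the 9 genes, 1 was called by DESeq2, with quality weights and without a filter. Leaving out each library gave 0 to 1 in edgeR and 0 to 2 in DESeq2. List genes called, 0 in edgeR, were 13 in DESeq2, 9 with quality weights, 11 without a filter, 3 with the replicate block, and with a library left out 0 to 5 in edgeR and, in the same order, 13, 1, 1, 26, 9, 7 and 17 in DESeq2. By CPM in place of TPM, 5 of the 10 genes kept their place in the order of levels. The block changed no call among the 9 genes. Nothing in the labels says whether mice with 1 number are pairs. Their correlations (-0.0469, 0.0153 and 0.0777) lay within the range of mice with different numbers (-0.178 to 0.177), which cannot decide it. Depth limits Il6, Cxcl1, Ccl2 and Ccl7, with at most 35 counts in any library.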
